A study of Mus musculus with 8 samples.

Results

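The regions described here are stretches of the mouse genome that carried a phospho-CREB1 peak in muscle of tumour-bearing mice and in neither control library. Overlapping peaks of the 4 phospho-CREB1 libraries (1 bp or more in common) were merged, and a merged region was kept when C26 replicate 1, C26 replicate 2 or both had a peak in it and neither CTRL library did. The rule kept 956 of 17607 merged regions (5.43%). Of these, 66 (0.375% of all regions) had a peak in both C26 libraries, 565 in C26 replicate 1 alone and 325 in C26 replicate 2 alone. Because the presence of peaks selected these regions, their number, their fold enrichment and their q-values are given as a description, and no test was made on them. A missing CTRL peak means that no peak passed the authors' threshold there, which does not show that the site was unbound.

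The libraries came from chromatin immunoprecipitation and paired-end sequencing (ChIP-seq) of muscle from male Balb/c mice. C26 mice had been injected under the skin at 2 months of age with C26 cells, a colon adenocarcinoma line of Balb/c origin whose tumours cause muscle wasting (cachexia), and CTRL mice were the controls. Each group had 2 phospho-CREB1 libraries and 2 inputs, 8 samples in all. The labels name the gastrocnemius as the tissue and the extraction protocol the quadriceps, and that protocol leaves both CREB and phospho-CREB1 as possible targets of the antibody, where the sample titles say phospho-CREB1. Under treatment the labels list rolipram (an inhibitor of phosphodiesterase 4) and vehicle for C26 mice without tying either to these libraries. Nothing in the labels says whether replicates were separate mice. The peak lists were of unequal length, with 7482 and 4051 peaks in C26 replicates 1 and 2 against 10835 and 14975 in CTRL replicates 1 and 2, and the read depth behind each list is unknown. A region of any kind lay within the span or 1000 bp of it for 31 of 45 sarcomere genes and for 10938 of all 21900 protein-coding genes. The counts for markers of other cell types were 4 of 10 endothelial, 3 of 10 fibroblast, 0 of 10 leukocyte, 0 of 5 adipocyte and 1 of 5 Schwann cell genes. These counts do not identify the tissue. Some lists not specific to muscle held regions more often than the sarcomere genes, such as 35 of 36 genes of respiratory complex I and 21 of 21 clock genes.

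CREB1 is a leucine zipper transcription factor that binds the cAMP response element, the palindrome TGACGTCA, or the shorter core TGACG. Protein kinase A and other kinases phosphorylate it at a serine, which lets it recruit the coactivators CBP and p300, while the CRTC proteins act as further coactivators that the SIK kinases hold in the cytoplasm. In muscle, CREB1 is known for supporting fibre survival, metabolism and the expression of the coactivator PGC-1α. Most of its strong sites across tissues lie in promoters with many CpG dinucleotides.

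Few of the 956 regions reached a promoter, and the sequences upstream of 7 genes where one did are printed here, chosen after their values were seen. Sequence was read from the RefSeq promoter table of build GRCm38.p6, on the strand of the gene, and covers the 250 bases before the start. Capitals mark the full element where it occurs, and otherwise the core TGACG or its reverse complement CGTCA. Fscn1 (chr5:142960105-142960354, plus strand) and H2-Aa (chr17:34287824-34288073, minus strand) are shown because the full element lay inside the C26 region. Ltbp1 (chr17:75005279-75005528, plus strand) is shown because it has the full element outside the region, Il6 (chr5:30012864-30013113, plus strand) and Trib3 (chr2:152344061-152344310, minus strand) because they hold the core alone. Sbno2 (chr10:80075440-80075689, minus strand) and Commd9 (chr2:101886012-101886261, plus strand) are the 2 genes whose promoter window overlapped a region of both C26 libraries, and hold neither.
Fscn1: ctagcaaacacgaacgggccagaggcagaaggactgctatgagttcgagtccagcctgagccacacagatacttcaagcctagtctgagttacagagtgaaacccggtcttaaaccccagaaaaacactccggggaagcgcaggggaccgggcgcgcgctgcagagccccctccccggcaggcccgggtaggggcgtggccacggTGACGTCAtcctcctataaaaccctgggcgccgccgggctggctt
H2-Aa: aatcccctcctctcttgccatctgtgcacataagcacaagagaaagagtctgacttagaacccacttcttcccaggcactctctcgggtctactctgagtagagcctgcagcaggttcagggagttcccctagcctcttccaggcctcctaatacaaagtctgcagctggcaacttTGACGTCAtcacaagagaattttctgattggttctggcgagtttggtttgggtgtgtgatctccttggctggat
Ltbp1: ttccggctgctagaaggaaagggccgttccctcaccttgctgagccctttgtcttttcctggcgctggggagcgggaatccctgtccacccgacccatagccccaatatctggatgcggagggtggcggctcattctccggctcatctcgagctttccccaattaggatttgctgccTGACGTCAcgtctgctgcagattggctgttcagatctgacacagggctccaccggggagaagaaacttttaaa
Il6: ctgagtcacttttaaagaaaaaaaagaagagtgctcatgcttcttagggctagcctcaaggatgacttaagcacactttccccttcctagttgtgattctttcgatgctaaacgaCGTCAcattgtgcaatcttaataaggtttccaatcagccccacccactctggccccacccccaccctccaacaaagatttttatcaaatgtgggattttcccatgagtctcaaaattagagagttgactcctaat
Trib3: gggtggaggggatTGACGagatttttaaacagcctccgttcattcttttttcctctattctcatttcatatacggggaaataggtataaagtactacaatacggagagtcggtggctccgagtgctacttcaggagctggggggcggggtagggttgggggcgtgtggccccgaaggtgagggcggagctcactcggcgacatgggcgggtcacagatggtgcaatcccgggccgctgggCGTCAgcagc
Sbno2: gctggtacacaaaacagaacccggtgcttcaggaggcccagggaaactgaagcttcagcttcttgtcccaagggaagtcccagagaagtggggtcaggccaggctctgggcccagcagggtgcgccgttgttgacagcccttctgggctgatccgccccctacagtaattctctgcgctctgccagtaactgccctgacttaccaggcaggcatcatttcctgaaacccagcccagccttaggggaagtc
Commd9: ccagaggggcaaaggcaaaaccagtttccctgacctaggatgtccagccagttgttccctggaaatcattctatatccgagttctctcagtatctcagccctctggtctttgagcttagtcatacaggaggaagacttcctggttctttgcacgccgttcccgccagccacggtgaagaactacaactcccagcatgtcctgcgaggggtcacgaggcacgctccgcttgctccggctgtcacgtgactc
Counted from the gene start, the full element began at base -45 in Fscn1, -74 in H2-Aa and -73 in Ltbp1. The core began at base -135 in Il6, inside the C26 region, and at bases -237 and -10 in Trib3, of which the second lay inside the region.

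In all, 60 of the regions overlapped 68 promoter windows (250 bases before to 50 after a start) of 61 genes. The full element TGACGTCA occurred in 3 of the 68 windows (4.41%, 95% Wilson interval 1.51 to 12.2%), against 2.24% of all 21238 promoter windows and 10.1% of the 2771 windows under regions shared by all 4 libraries. The core TGACG, which every full element contains on both strands, occurred in 13 of 68 (19.1%, interval 11.5 to 30.01%), against 23.6% of all windows and 58.9% of those shared by all 4 libraries. The core lay within the C26 region itself in 8 windows, and the full element in 2. Windows under regions of both CTRL libraries alone held the full element in 1.04% and the core in 25.2% of 1532 cases. The windows reached by C26 regions had a median of 12 CpG dinucleotides and 58.3% G or C, close to the 13 and 56.3% of all windows, while windows shared by all 4 libraries had 25 and 62.3%. Further patterns were searched on both strands in the 68 windows. The AP-1 site TGANTCA was found in 7 (10.3%, against 6.99% of all windows), the C/EBP pattern TTGCNNAA in 9 (13.2%, against 10.2%) and the STAT pattern TTCNNNGAA in 3 (4.41%, against 7.69%). The C/EBP-ATF composite TGACGCAA and the glucocorticoid element were in 0 of 68, which allows up to 5.35% at the upper Wilson limit. Among all windows, the composite was in 0.645% and the glucocorticoid element in 0.0424%. Both are so rare that their absence from the 68 does not set these windows apart. Pattern matches describe letters in these windows and not bound sites, and regions away from promoters were not searched.

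**Figure D1:**
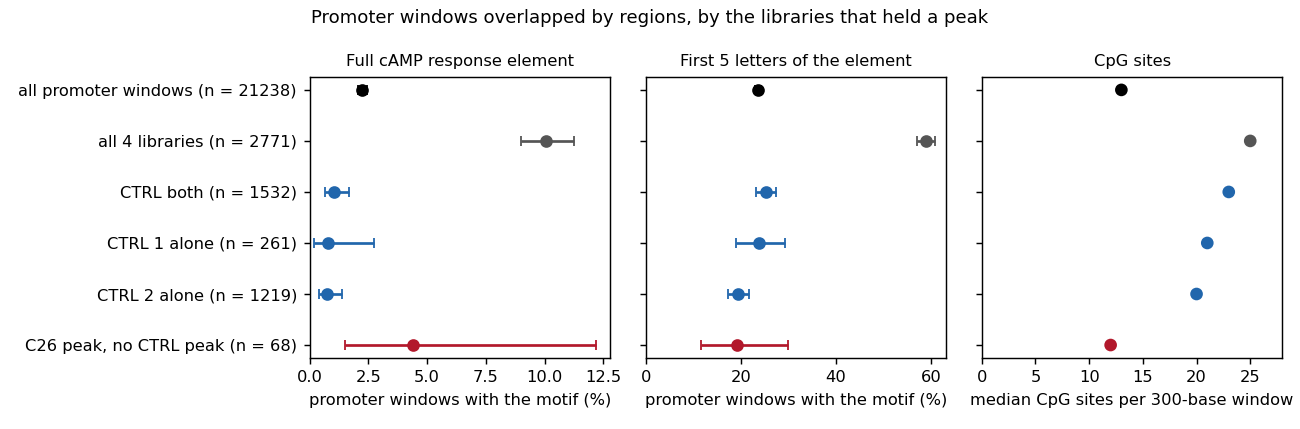
Promoter windows of 300 bases overlapped by regions, grouped by the libraries that held a peak, with the share holding the full cAMP response element (left, %) or its first 5 letters (middle, %, both with 95% Wilson intervals) and the median number of CpG sites (right). The 68 windows under regions with a C26 peak and no CTRL peak sit beside all 21238 windows in core share and CpG count, and windows shared by all 4 libraries stand at 58.9% and 25.

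Away from promoters is where most of these regions lay. A region was placed by the summit of its strongest peak, as near a gene start (within 1000 bp), inside a protein-coding gene but farther from a start, or outside genes. For 4408 genes without a listed start, either end of the gene span stood in for it. Of the 66 regions with peaks in both C26 libraries, 3 lay near a start (4.55%, interval 1.56 to 12.5%), 34 inside genes (51.5%) and 29 outside (43.9%). Of those in C26 replicate 1 alone, 91 of 565 lay near a start (16.1%, interval 13.3 to 19.4%), and of those in C26 replicate 2 alone 26 of 325 (8.00%, interval 5.52 to 11.5%). Over all 956, 12.6% lay near a start and 52.3% inside genes, against 51.7% and 28.5% of all merged regions. Regions with peaks in both CTRL libraries alone were near a start in 59.1% of 2761 cases, regions of CTRL replicates 1 or 2 alone in 24.8% and 31.9%, and regions of all 4 libraries in 82.4% of 2978. The median distance to the nearest start was 24904 bp for the 66, 17169 and 18044 bp for the single-replicate regions, and 98.5 bp for regions of all 4 libraries. Of the 66, 52 (78.8%) lay more than 10000 bp from any start, as did 60.9% and 63.9% of the single-replicate regions and 26.9% of the regions of both CTRL libraries.

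**Figure D2:**
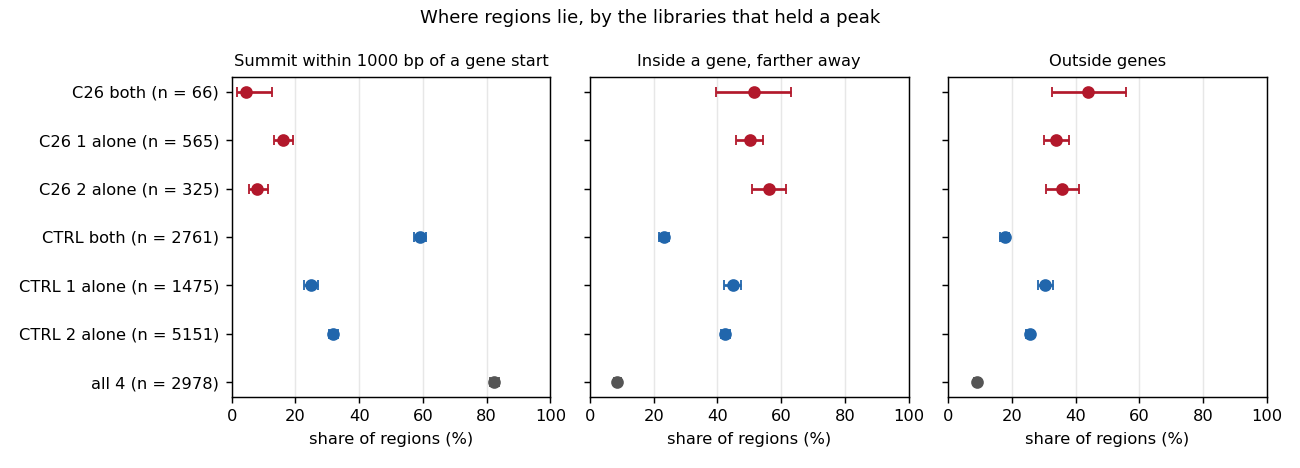
Share of regions (%, points with 95% Wilson intervals) near a gene start, inside a gene and outside genes, for each set of libraries that held a peak. The 3 sets of C26 regions (red) have 4.55 to 16.1% near a start, below every CTRL set (blue, 24.8 to 59.1%) and the regions of all 4 libraries (grey, 82.4%).

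The same comparison was made over libraries, since regions are not replicates. Among peaks that overlapped no peak of the other group, 14.9% of 631 in C26 replicate 1 and 7.38% of 393 in C26 replicate 2 lay near a start, against 47.5% of 4348 in CTRL replicate 1 and 41.5% of 7953 in CTRL replicate 2. Both C26 values were below both CTRL values. The group means were 11.1% ± 5.32 for C26 and 44.5% ± 4.22 for CTRL (SD, n = 2 libraries each), a difference of -33.4 percentage points (exact permutation test over the 4 libraries, two-sided p = 0.3333, the smallest p that 2 against 2 allows). The peaks were chosen by their absence from the lists of the other group, and those lists differ in length. Both libraries of a group were set against the same lists, and the permutation did not choose the peaks anew. The test therefore cannot decide whether the groups differ, and the values are a description. Peaks without an overlap in the other group made up 8.43 and 9.70% of the C26 lists and 40.1 and 53.1% of the CTRL lists. Over all peaks of each list, both C26 values were above both CTRL values. They were 70.85 and 67.4% near a start in C26 replicates 1 and 2, and 65.3 and 57.4% in CTRL replicates 1 and 2. The share of C26 regions near a start moved with the lists that entered. With every list trimmed to its 4051 strongest peaks, 178 regions had peaks in both C26 libraries alone, and 39.3% of them lay near a start, as did 37.8% of all 1729 regions of C26. Without CTRL replicate 2, the share was 21.5% of 163 regions in both C26 libraries and 27.6% of 1811 in either.

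The shares were also taken by quartile of peak strength within each list. The lists differ in length, so the same quartile of 2 lists need not hold peaks of equal strength. Strength is the percentile of a peak's −log10 q within its own list, since fold enrichment and q were scaled separately in each library. Among regions of C26 replicate 1 without a CTRL peak, 15.6% of 403 in quartile 1 of the list (the weakest), 12.4% of 178 in quartile 2 and 18.4% of 49 in quartile 3 were near a start. For regions of the same list that CTRL shared, the corresponding shares were 63.2, 69.2 and 78.5%. In C26 replicate 2, the shares without a CTRL peak were 7.03% of 256, 10.8% of 102 and 0 of 30 (which allows up to 11.4%), against 61.9, 68.1 and 75.1% of the shared regions. Only 1 and 3 regions without a CTRL peak were in quartile 4 (the strongest) of the C26 lists. In quartile 1 of the CTRL lists, regions without a C26 peak were near a start in 38.9% (replicate 1) and 27.1% (replicate 2) of cases.

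**Figure D3:**
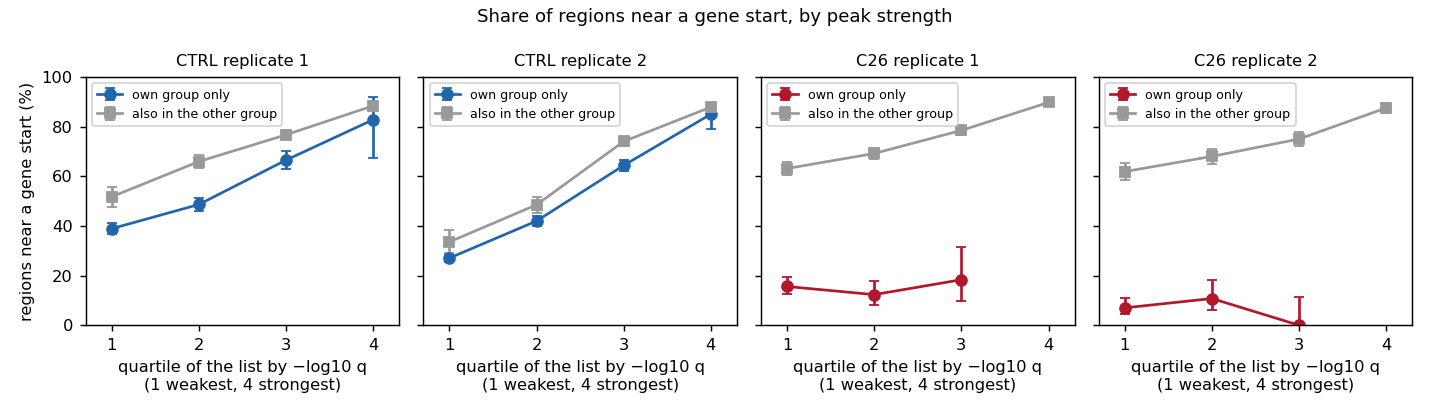
Share of regions near a gene start (%, with 95% Wilson intervals) by quartile of each library's list ordered by −log10 q, for regions found in that library's own group alone (coloured) and regions also found in the other group (grey). Quartiles with fewer than 20 regions are not drawn. The red points stay between 0 and 18.4%, while the grey points of the C26 lists run from 61.9 to 89.8%.

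The 66 regions with peaks in both C26 libraries were of moderate strength. Their median percentile was 38.0 in the list of C26 replicate 1 and 32.0 in that of C26 replicate 2, with highest values of 69.0 and 76.9, while single-replicate regions had medians of 16.5 and 15.1. Fold enrichment over input, the authors' value, ranged from 3.14 to 7.88 (median 5.104) in C26 replicate 1 and from 4.05 to 10.2 (median 5.82) in C26 replicate 2. Their median width was 438 bp, against 293 and 333 bp for the single-replicate regions and 916.5 bp for regions of all 4 libraries. A merged region spans all of its peaks, so its width grows with the number of libraries that had one. The summits in the libraries of C26 replicates 1 and 2 lay a median of 70.5 bp apart, and within 100 bp of each other in 46 of 66 regions (69.7%). The rule did not read summits, but it required the peaks to overlap, which by itself keeps summits close. In 1122 regions of all 4 libraries, the C26 percentiles were no higher than the highest of the 66. There the median was 75 bp and the share within 100 bp 61.1%. Strength was not matched further, and CTRL peaks can join C26 peaks in those regions, so the values are given as a description only. Few regions were shared between the C26 replicates. Of the regions without a CTRL peak, 66 of 631 in C26 replicate 1 (10.5%) and 66 of 391 in C26 replicate 2 (16.9%) were also in the other C26 library. For regions that CTRL also had, the shares were 46.1% of 6756 and 86.0% of 3623. The share found in both C26 libraries was larger among stronger peaks, at 5.96, 14.0 and 34.7% over quartiles 1 to 3 of C26 replicate 1 and 10.5, 25.5 and 40.0% over those of C26 replicate 2.

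**Figure D4:**
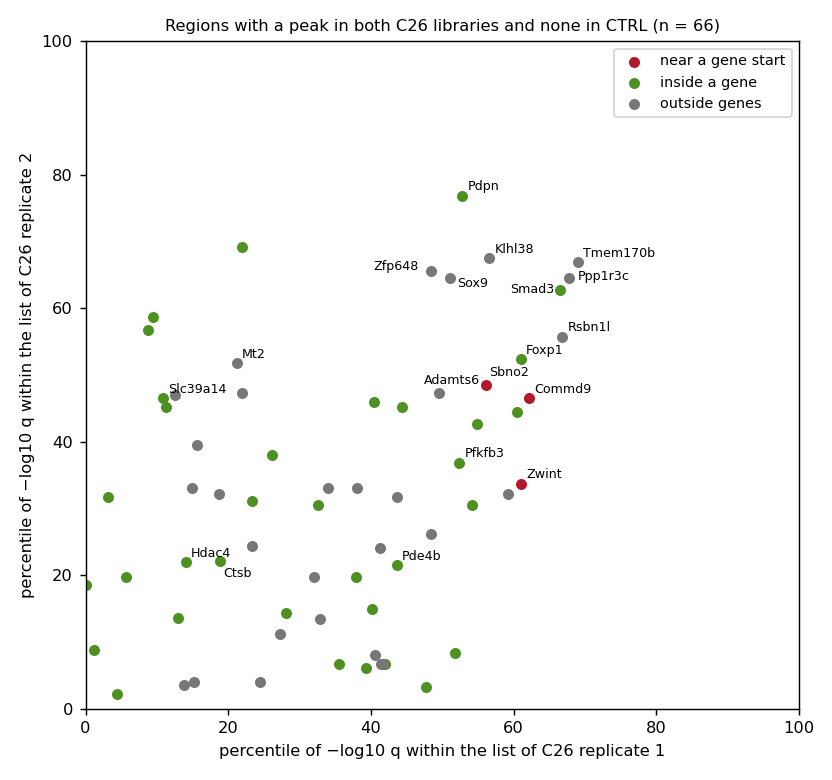
Each point is 1 of the 66 regions with a peak in both C26 libraries and none in CTRL, placed by its percentile of −log10 q in the list of C26 replicate 1 (x axis) and C26 replicate 2 (y axis) and coloured by its place. The strongest regions, at Tmem170b, Ppp1r3c, Smad3 and Pdpn, reach percentiles of 69.0 and 76.9, and the 3 regions near a gene start are Sbno2, Commd9 and Zwint.

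Of the 66 regions, 3 lay at gene starts. The first was at Sbno2, a helicase-like corepressor gene known to be induced by the IL-10 and IL-6 to STAT3 route (chromosome 10, 80075332 to 80075718, summit 14 bp from the start), with folds of 4.87 in C26 replicate 1 and 6.87 in C26 replicate 2. The second was at Commd9, a member of the COMMD family that acts in endosomal protein sorting (chromosome 2, 101886082 to 101886391, 72 bp from the start), with folds of 7.69 and 6.80. The third was at Zwint, which encodes a kinetochore protein (chromosome 10, 72655143 to 72655587, 542 bp from the start), with folds of 6.73 and 6.04. The nearest CTRL peak was 3668 bases away at Sbno2, 89205 at Commd9 and 8 at Zwint, so that the Zwint region bordered on a CTRL peak.

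Most of the 12 strongest of the 66 are given here by the gene they lay in or nearest to. The region in Smad3, the transcription factor of the TGF-β and myostatin pathway (chromosome 9, 63745963 to 63746434, 11698 bp downstream of the start), had folds of 6.81 in C26 replicate 1 and 8.24 in C26 replicate 2. One in Foxp1, a forkhead repressor gene (chromosome 6, 99458833 to 99459198), had folds of 7.45 and 7.12, and one 223219 bp from Sox9, its nearest gene and a regulator of cartilage development, folds of 7.05 and 8.25 (chromosome 11, 113010918 to 113011249). The region 31569 bp from Ppp1r3c, which encodes a subunit that targets protein phosphatase 1 to glycogen (chromosome 19, 36767912 to 36768497), had folds of 7.82 and 8.25. A region below the 12 strongest, in Pfkfb3, the kinase that makes the glycolytic activator fructose 2,6-bisphosphate (chromosome 2, 11530045 to 11530502), had folds of 5.85 and 6.09. Another of the 12 strongest was in Pdpn, which encodes the membrane glycoprotein podoplanin (chromosome 4, 143288759 to 143289342, folds of 6.32 and 10.2). Further ones were near Tmem170b (5.78 and 8.65), Klhl38 (6.91 and 8.70), Rsbn1l (7.12 and 7.34), Zfp648 (5.09 and 8.55) and Adamts6 (6.43 and 6.60). These last 5 lay outside genes, at 10102 bp from Rsbn1l, 13583 from Adamts6, 21400 from Tmem170b, 27442 from Klhl38 and 135063 from Zfp648. A gene named by distance is the nearest protein-coding one and is not shown to be the target.

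Other regions of the 66 were named because they lay at list genes, except where stated. A region in Hdac4, a histone deacetylase induced in denervated muscle (chromosome 1, 92033547 to 92033982), had folds of 4.27 and 5.35. One in Ctsb, the lysosomal protease cathepsin B (chromosome 14, 63132286 to 63132662), had folds of 3.41 and 5.44, and was chosen after its values were seen. So was one in Slc39a14, a zinc and iron importer (chromosome 14, 70331466 to 70331901), with folds of 4.00 and 6.80. The region 719 bp past the end of Mt2, a metallothionein that binds zinc (chromosome 8, 94173676 to 94174537, 1668 bp from the start), had folds of 4.03 and 7.16. Upstream of Mt2, a region shared by all 4 libraries (chromosome 8, 94171107 to 94172629) had folds of 4.68 and 6.50 in CTRL replicates 1 and 2 and 4.74 and 17.4 in C26 replicates 1 and 2. The region in Pde4b, a cAMP phosphodiesterase of the family that rolipram inhibits (chromosome 4, 102538476 to 102539231), had folds of 6.38 and 5.38, and a second region of C26 replicate 1 alone (fold 6.75) began 617 bases beyond it. In all, 10 of the 66 had another C26 region within 50000 bp, at Dysf, Msi2, Atoh8, Hlcs, Pde4b, Mitf, Hdac4, Pknox2, Slc39a14 and Rasa3. The same held for 103 of the 565 regions of C26 replicate 1 alone and 73 of the 325 of C26 replicate 2 alone, a larger share in each. At Hlcs, which encodes the enzyme that attaches biotin to carboxylases, a region of C26 replicate 1 alone (fold 8.46) lay 398 bases from the region of both libraries (folds of 4.23 and 8.91). Of the 66, only the Zwint region had a CTRL peak within 500 bases, and for 43 the nearest CTRL peak was more than 10000 bases away (median 18276).

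Each region was then assigned to the protein-coding genes whose span it overlapped or came within 1000 bp of. Of 21900 genes, 598 (2.73%) held at least 1 of the 956 regions and 38 (0.174%) held one found in both C26 libraries. These genes were long, with a median span of 69940 bp for the 598 and 87580 bp for the 38, against 24451 bp for genes with any merged region and 17146 bp for all genes. The share for each gene list below stands against the 2.73% of all genes and is given with the median gene span of each list. The part of gene length in them was not tested. Only 10938 of the 21900 genes held any merged region, and the 598 are all among these. Most list genes held one, such as 32 of 35 atrophy, 30 of 32 insulin, 41 of 49 cAMP and 21 of 21 clock genes. The cell type markers did so less often, as given above. The shares are therefore not comparable with 2.73% at like presence of peaks.

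Genes of muscle atrophy, the ubiquitin ligases, autophagy factors and denervation-induced genes that act in muscle loss, held C26 regions in 5 of 35 cases (14.3%, median span 27070 bp). They were Trim63, Hdac4, Gadd45a, Musk and Runx1. Trim63 encodes MuRF1, the ubiquitin ligase that marks myosin for breakdown, and held 3 regions, each in 1 library. C26 replicate 1 had peaks at chromosome 4, 134316445 to 134316721 (fold 5.27, 1537 bp downstream of the start) and 134329893 to 134330844 (fold 7.19, 14887 bp downstream), and C26 replicate 2 had one at 134324275 to 134324678 (fold 5.35, 9213 bp downstream). The start of Trim63 had a peak in CTRL replicate 2 as well (fold 4.27), with folds of 5.00 and 5.87 in C26 replicates 1 and 2. Gadd45a, a stress gene known to be induced by ATF4, held 2 regions of C26 replicate 1 (folds of 5.61 and 4.97), of which the second was 880 bp upstream of the start. Musk, the receptor kinase of the neuromuscular junction, had a fold of 7.52 in C26 replicate 1, and Runx1, a transcription factor that rises on denervation, 4.71 in the same library.

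**Figure D5:**
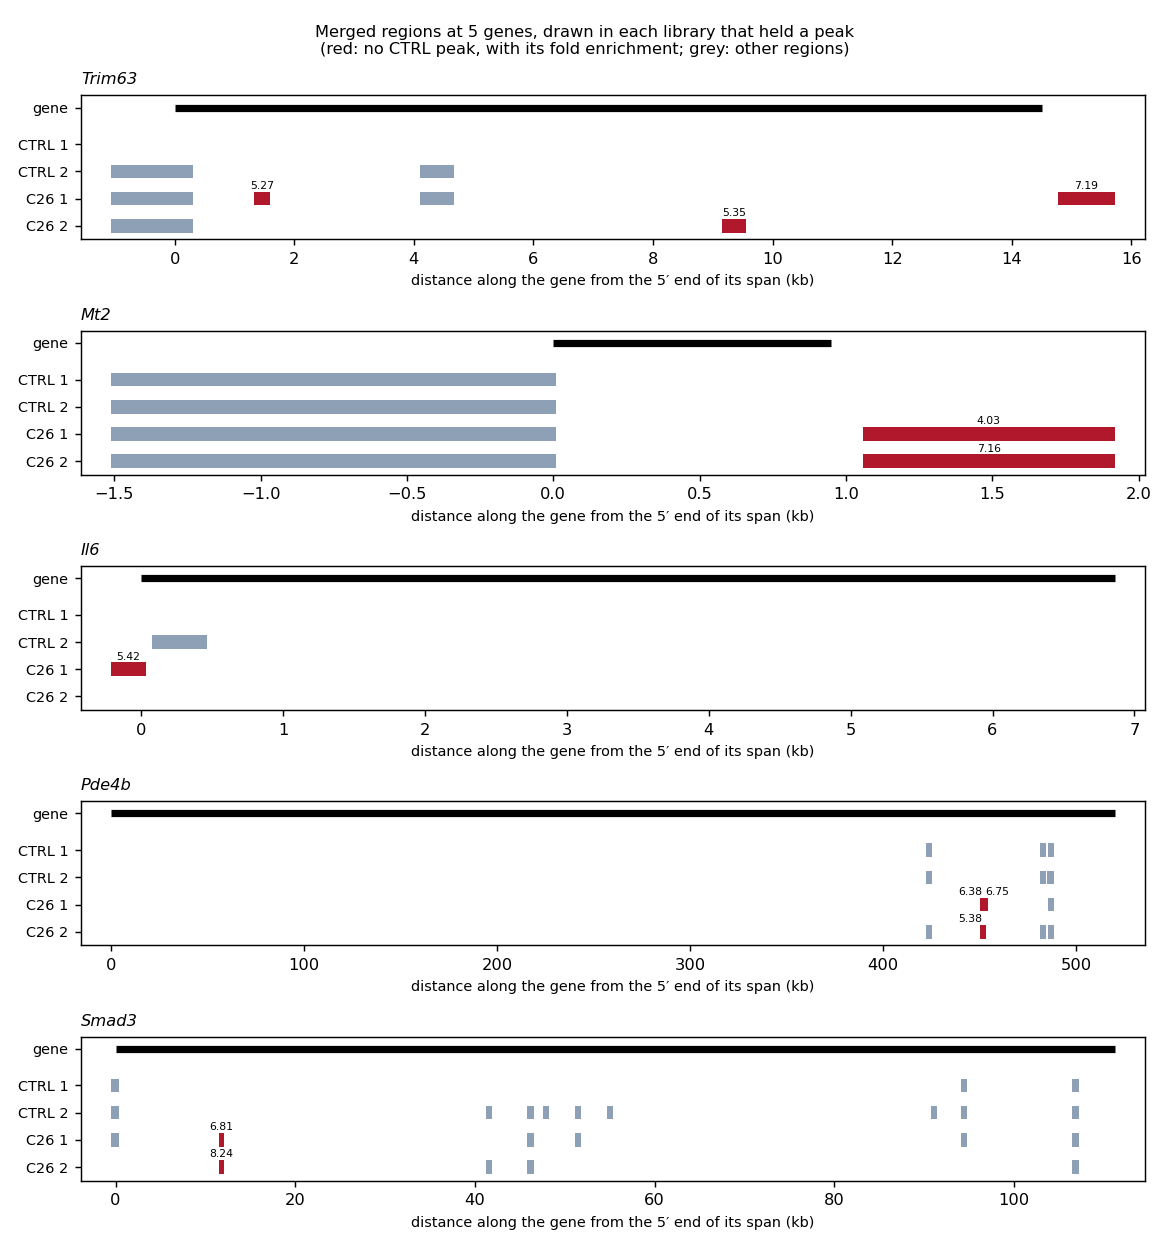
Merged regions at Trim63, Mt2, Il6, Pde4b and Smad3, drawn in the row of each library that held a peak, against distance from the 5′ end of the gene span (kb). Bars are whole merged regions, with a minimum drawn width. Red bars are regions without a CTRL peak, with the fold enrichment of that library above them, and grey bars are all others. Smad3, Pde4b and Mt2 have a red region in both C26 rows, while the 3 red regions of Trim63 and the 1 of Il6 stand in 1 row each.

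Inflammatory and hormone-responsive genes held single-replicate regions, apart from Mt2. In the list of IL-6, STAT3 and NF-κB genes, 4 of 35 held one (11.4%, median span 14947 bp), namely Il6, Stat3, Tnfrsf1a and Lcn2. Il6, a cytokine of cachexia, had a peak of C26 replicate 1 at chromosome 5, 30012900 to 30013145 (fold 5.42, 117 bp upstream of the start, over the core printed above), and a CTRL replicate 2 peak (fold 4.59) lay 44 bases from it. Lcn2, which encodes the iron-siderophore carrier lipocalin 2, had a peak of C26 replicate 1 alone at chromosome 2, 32387726 to 32388118 (fold 4.43, 163 bp upstream of the start), the only region at that gene. Stat3, the transcription factor downstream of IL-6, had a fold of 5.04 in C26 replicate 1, and Tnfrsf1a, a receptor of tumour necrosis factor, 5.61 in C26 replicate 2. Of 26 glucocorticoid-induced genes and metallothioneins, 4 held a region (15.4%, median span 14293 bp): Mt2, Lcn2, Sgk1 and Angptl4. Sgk1, a glucocorticoid-induced kinase, had a fold of 3.90 in C26 replicate 2 at 599 bp upstream of its start, and Angptl4, an inhibitor of lipoprotein lipase, 3.75 in C26 replicate 1.

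In the TGF-β and myostatin list, ligands, receptors and a mediator held regions in 6 of 39 genes (15.4%, median span 61034 bp). On the ligand side, Tgfb3, a TGF-β gene, had a fold of 4.72 in C26 replicate 2, and Ltbp1, which tethers latent TGF-β to the matrix, 5.52 in C26 replicate 2 at 418 bp upstream of its start. Among the receptors, Acvr1 had 5.44 in C26 replicate 1, Acvr1b, a receptor that myostatin uses, 5.68 in C26 replicate 2, and Bmpr2 5.06 in C26 replicate 1 at 524 bp downstream of its start. Smad3 was the 1 gene of the list with a region in both libraries. In the insulin, AKT, FOXO and mTOR list, 5 of 32 genes held one (15.6%, median span 81857 bp). The insulin receptor gene Insr held 1 of each library (7.69 in C26 replicate 1 and 6.36 in C26 replicate 2), as did Igf1r, the receptor gene of the insulin-like growth factor IGF-1 (4.23 and 5.598). Pik3ca, a catalytic subunit of phosphoinositide 3-kinase, held 2 of C26 replicate 1 (3.61 and 3.39), Foxo3, an atrophy transcription factor, 1 of C26 replicate 2 (4.46), and Deptor, an mTOR inhibitor, 1 of C26 replicate 2 (5.37).

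The cAMP and CREB pathway itself held regions in 9 of 49 genes (18.4%, median span 78763 bp). They were cyclases, phosphodiesterases, coactivators and 1 kinase, and none was a protein kinase A subunit or a CREB family gene. Of the adenylyl cyclases, which make cAMP, Adcy9 held 4 regions (5.31, 4.73 and 3.91 in C26 replicate 1 and 6.23 in C26 replicate 2) and Adcy2 1 (3.91 in C26 replicate 1). Of the phosphodiesterases, which break it down, Pde4b held the pair described above, and Pde4d (3.76), Pde8a (3.43, at 873 bp downstream of its start) and Pde10a (3.29) each held 1 of C26 replicate 1. Of the coactivators, Crtc1 had 6.64 in C26 replicate 1 and Crtc3 3.98 in C26 replicate 2, and Sik3, of the kinases that restrain them, 5.08 in C26 replicate 1. Among 29 known CREB1 target genes, 2 held a region (6.90%, median span 8051 bp), Per2 (3.09 in C26 replicate 1) and Nfil3 (4.49 in C26 replicate 2). Both are also clock genes, a list in which 4 of 21 held a region (19.0%, median span 33642 bp), with Npas2 (6.60 in C26 replicate 2) and Rora (7.88 in C26 replicate 2 and 5.25 in C26 replicate 1).

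None of the 36 genes of respiratory complex I had a C26 region without a CTRL peak, near the 2.73% of all genes. Of the 36, 35 held a merged region of some kind (median span 8097 bp, against 17146 bp for all genes). A list of 36 genes is too short to tell a share of 2.73% from the absence of any such C26 region. Of 32 genes of PGC-1 and mitochondrial biogenesis, 2 held one (6.25%, median span 42679 bp): Ppargc1b, a PGC-1 family coactivator (4.12 in C26 replicate 1), and Esrrg, an oestrogen-related receptor (4.49 in C26 replicate 2). None of the 28 listed AP-1, immediate early and Krüppel-like factor genes held one (median span 8573 bp), again near the 2.73% of all genes. Of these 28, 27 held another region. Klf14, a Krüppel-like factor gene outside the list, held 1 of C26 replicate 1 alone. Glycolysis and glycogen genes held regions in 5 of 39 cases (12.8%, median span 22861 bp). Besides Pfkfb3, they included Hk2, hexokinase 2 (4.76 in C26 replicate 2), Pfkfb4 (4.50 in C26 replicate 1) and Pgm2 (4.68 in C26 replicate 1).

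Muscle structure and identity genes held regions of 1 library, apart from Hdac4. Of 45 sarcomere genes, 3 held one (6.67%, median span 23017 bp): Myom1, which encodes the M-band protein myomesin (8.18 in C26 replicate 1), Ldb3, a Z-disc protein gene (4.51 in C26 replicate 1), and Synpo2 (4.52 in C26 replicate 2 and 4.21 in C26 replicate 1). Of 28 genes of excitation-contraction coupling, 3 held one (10.7%, median span 59693 bp): Stim1, the calcium sensor of the sarcoplasmic reticulum (6.18 in C26 replicate 2), Camk2g (4.49 in C26 replicate 2) and Jph2, which joins the reticulum to the plasma membrane (4.31 in C26 replicate 1). Of 37 myogenic and fibre type regulators, 6 held one (16.2%, median span 52793 bp). They were Hdac4, Mrtfb (6.37 in C26 replicate 2 and 4.21 in C26 replicate 1), Tbx15 (5.25), Eya4 (4.56) and Nfic (4.16) in C26 replicate 1, and Nfatc2 (3.67 in C26 replicate 2). Among markers of other cell types in muscle, 1 of 10 fibroblast genes held regions, and 0 of 10 endothelial, 0 of 10 leukocyte, 0 of 5 adipocyte and 0 of 5 Schwann cell genes. It was Dpt, which encodes the matrix protein dermatopontin (6.11 in C26 replicate 2 and 3.31 in C26 replicate 1).

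Some of the strongest regions were in 1 library only. In C26 replicate 1, these included regions in Macroh2a1, a histone variant gene (chromosome 13, 56075928 to 56076410, fold 10.8, the highest among the 956 regions in that library), Hlcs (8.46), Chd7, a chromatin remodeller gene (9.08), and Myom1, and others at the start of Tmem38b, which encodes a cation channel of the sarcoplasmic reticulum (6.87, 170 bp from the start), 51321 bp from Dennd1b (8.29), and in Insr. In C26 replicate 2, the highest −log10 q (49.4) belonged to the mitochondrial genome at positions 15590 to 16020, where the fold was only 2.20. The next were in Vps36, an endosomal sorting gene (chromosome 8, 22214769 to 22215191, fold 9.90), Nfe2l2, which encodes the oxidative stress regulator NRF2 (chromosome 2, 75685431 to 75685914, fold 9.88), Fgf2, a growth factor gene (8.63), Acss1, a mitochondrial acetyl-CoA synthetase gene (8.47), and Vps13d (8.05), and 70124 bp from Lacc1 (8.81) and 12277 bp from Auh (8.58). Nfe2l2 also held 2 regions of C26 replicate 1 (4.45 and 3.66).

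At gene starts, the strongest regions of C26 replicate 1 alone were at Tmem38b, Fscn1, Nbas, Zfp579, Tmem87b, Cdc14b, Ucp2 and Ttc30a1, with folds from 5.21 to 7.34. Fscn1 encodes the actin bundler fascin (chromosome 5, 142960060 to 142960501, fold 6.92, 49 bp from the start), and Ucp2 an uncoupling protein of the inner mitochondrial membrane (chromosome 7, 100493471 to 100493802, fold 5.21, 308 bp from the start). The Ucp2 region had a CTRL peak 80 bases away, and the Tmem87b region one 359 bases away. Those of C26 replicate 2 alone were at Psmb7, Doc2b, H2-Aa, Ubac1, Bard1, Srgn, Phyhd1 and Ltbp1, with folds from 5.52 to 6.98. Psmb7 encodes a catalytic subunit of the proteasome (chromosome 2, 38643827 to 38644208, fold 6.98). Its summit lay 34 bp from an end of the gene span that stood in for the start. H2-Aa encodes the α chain of an MHC class II molecule (chromosome 17, 34287640 to 34287991, fold 5.77, 8 bp from the start). CTRL peaks lay 162 bases from the Ubac1 region and 113 from the Phyhd1 region. Trib3, a pseudokinase known as a target of ATF4, had a fold of 5.72 in C26 replicate 1 at chromosome 2, 152343987 to 152344235 (18 bp upstream of the start), and was chosen after its values were seen.

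The rule turns on whether a C26 peak touches a CTRL peak. Just inside it, the regions in 2310002L09Rik and 2900026A02Rik, both of C26 replicate 1 alone, lay 1 and 2 bases from a CTRL peak, with folds of 4.87 and 3.81. Just outside it, C26 replicate 1 peaks at chromosome 4, 151751621 to 151751926 (fold 5.91) and chromosome 6, 39205045 to 39205425 (fold 5.01) shared 8 bases with one. Of the single-replicate regions, 43 of 565 in C26 replicate 1 and 23 of 325 in C26 replicate 2 had a CTRL peak within 500 bases. With peaks up to 500 bp apart joined, 881 regions remained without a CTRL peak, of which 10.1% lay near a gene start. At the q threshold, the weakest regions were in Rgma (−log10 q of 1.31, C26 replicate 1) and Esr1 (1.35, C26 replicate 2).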

How the data were processed

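Phospho-CREB1 peak lists of 4 libraries, 2 CTRL and 2 C26, were used. The submitters' processing notes name MACS2 2.1.4, SAMtools 1.6, Picard, Bowtie2 2.3.5.1 and FastQC 0.11.2, and the build mm10 (GRCm38). Per the labels, peaks were called in each library against an input of its own group at q 0.05, and a further filter is named only by an abbreviation. The deposited lists give each peak's position and summit, its fold over input (a ratio), −log10 of the p-value and q-value, and an integer score derived from q by the authors' peak caller. The authors' fold and q describe single peaks and were used within 1 list only.

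Lists were merged at an overlap of at least 1 bp with Python 3.11.15, pandas 2.3.3, numpy 2.4.6 and scipy 1.17.1, and figures were drawn with matplotlib 3.10.9. Genes were 21900 protein-coding genes of the GRCm38.p6 table. Starts of 17492 came from the RefSeq promoter table, and the other 4408, those of chromosome 18 among them, were placed by both ends of their span. The scripts were tested on simulated data. Wilson intervals are at 95% and cover counting error only. Sequence outside promoter windows was not analysed here.

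The regions, the 20 gene lists (528 genes) and the tests were chosen with earlier results of these data known. Named in the text were the 12 regions of both C26 libraries with the highest lower percentile, all such regions near a gene start, and the 8 strongest single-replicate regions of each C26 list, overall and near a start. Regions in or within 1000 bp of a list gene, and regions of both libraries within 50000 bp of another C26 region, were named as well. A gene that the rule names is not reported here. Alternatives were another overlap, joining distance, q threshold, start window, lists of equal length and leaving out each library.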

Additional observations from a re-analysis of the deposited data

How the results depend on the processing

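The count of regions with a C26 peak and no CTRL peak was 881 to 990 with another overlap or joining distance and 645 with −log10 q of at least 3 in the C26 lists. It was 1729 with all lists trimmed to equal length, and 393 to 1811 on leaving out each library, the highest being without CTRL replicate 2. The count in both C26 libraries was 178 with trimmed lists, of which 21 were among the 66, and 104 and 163 without CTRL replicates 1 and 2. It has no value without a C26 replicate. At q of 0.01, 63 of the 66 remained, and at −log10 q of at least 3, 49. The share near a gene start was 10.1% with peaks within 500 bp joined, 37.83% with trimmed lists, 8.891% and 24.48% with windows of 500 and 5000 bp, and 7.379 to 27.55% on leaving out each library. For regions of both C26 libraries it was 39.33% with trimmed lists, 15.15% with a window of 5000 bp, and 5.769 and 21.47% without CTRL replicates 1 and 2. The cause of these shifts was not tested. Trimming or leaving out a CTRL list lowers the number of CTRL peaks, and trimming also shortens the list of C26 replicate 1. The difference between C26 and CTRL libraries in the share of own-group peaks near a start kept its sign in 11 of 11 settings, from -22.74 percentage points without CTRL replicate 2 to -48.4 without C26 replicate 1. It was -38.67 with trimmed lists, and -27.47 and -29.31 in settings added after the data were seen, the weaker peaks of each list and both ends of every gene. With a replicate block it was -33.35 (exact sign-flip p = 0.5, the smallest possible for 2 pairs). The limit given above for the permutation test holds for this test too. The labels do not say that replicate numbers mark a shared batch, and same-numbered libraries did not deviate together (r = -0.0323 over 2978 regions). Read depth is unknown, so a region without a peak in a shorter list cannot be told apart from one that too few reads covered.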

Other observations

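Several genes held more than 1 of the 956 regions, and were chosen after their values were seen. Of the 598 genes with a region, 69 held at least 2 and 11 at least 3. Adcy9 and Dysf held 4 each, and Eif4g3, Fyn, Hlcs, Nedd4l, Nfe2l2, Rin2, Tacc2, Tgm2 and Trim63 held 3 each. Dysf, which encodes the membrane repair protein dysferlin, held a region of both C26 libraries (chromosome 6, 84010493 to 84011077, folds of 6.60 in C26 replicate 1 and 6.69 in C26 replicate 2), 2 regions of C26 replicate 2 (4.00 and 4.86) and 1 of C26 replicate 1 (4.72). Fyn, a Src family kinase gene, held 3 regions of C26 replicate 2 (3.93, 5.66 and 6.46). Tgm2, which encodes a transglutaminase, held 1 of C26 replicate 2 (4.08) and 2 of C26 replicate 1 (3.19 and 4.60).

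Other regions of both C26 libraries lay outside genes. One was 2646 bp from the span of Idh2, the mitochondrial isocitrate dehydrogenase gene (folds of 5.28 in C26 replicate 1 and 5.43 in C26 replicate 2), and one 64806 bp from that of Irs2, an adaptor of the insulin receptor (5.63 and 5.99). One lay 2455 bp from Zc3h12a, which encodes an RNase that cleaves inflammatory transcripts (4.25 and 4.28), and one 127369 bp from Trib1, a pseudokinase gene (4.49 and 5.57). A region of C26 replicate 1 inside Dnm2 (chromosome 9, 21496639 to 21496985, fold 4.68) lay 74 bases from the hairpin of Mir199a-1.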
